A study of Mus musculus with 6 samples.

Results

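The NRF2 pathway and the first steps of glutathione synthesis were followed in primary mouse embryonic fibroblasts (pMEFs) through 10 genes: Nfe2l2, Keap1, Nqo1, Hmox1, Gclc, Gclm, Gsr, Txnrd1, Srxn1 and Gstm1. They were chosen by name for their known roles, with earlier results of these data known. All 10 were among the 17512 genes with RNA-seq counts, and all 10 were among the 14773 genes with enough counts to test. The RNA came from 3 HAT1 WT lines (36, 47 and 78) and 3 HAT1 KO lines (33, 41 and 72), all untreated and on the C57bl6 strain background. HAT1 is an enzyme that acetylates newly made histone H4, and the KO lines are labelled as lacking it. The lines are cultures derived from embryos whose internal organs had been taken out, so other cell types of the embryo can persist beside the fibroblasts. The comparison asks whether RNA of this pathway differs between the genotypes.

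NRF2, the protein of Nfe2l2, is a transcription factor that KEAP1 holds at low levels by directing it to degradation. Electrophiles and oxidants act on KEAP1, NRF2 then accumulates, and it binds antioxidant response elements near genes that make glutathione, recycle thiols, detoxify quinones and break down heme. Because much of this control acts on the NRF2 protein, the level of Nfe2l2 RNA alone does not report how active the pathway is.

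The sequence just upstream of 3 members is shown because they represent both patterns described here: Srxn1 and Gstm1 were lower in all KO lines, and Nqo1 was high in a single KO line. Each run is the 250 bases before the annotated start in RefSeq on build GRCm38.p6, read in the direction of transcription, and capitals mark the core of the antioxidant response element, TGANNNNGC, on either strand. The Srxn1 sequence is chr2:152105274-152105523 on the plus strand, the Nqo1 sequence is chr8:107403206-107403455 on the minus strand, and the Gstm1 sequence is chr3:108017974-108018223 on the minus strand.
Srxn1: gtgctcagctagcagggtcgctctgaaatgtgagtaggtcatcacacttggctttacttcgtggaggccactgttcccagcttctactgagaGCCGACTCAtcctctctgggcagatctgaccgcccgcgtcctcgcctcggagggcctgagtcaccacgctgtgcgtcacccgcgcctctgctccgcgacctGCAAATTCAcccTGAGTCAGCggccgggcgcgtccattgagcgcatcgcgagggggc
Nqo1: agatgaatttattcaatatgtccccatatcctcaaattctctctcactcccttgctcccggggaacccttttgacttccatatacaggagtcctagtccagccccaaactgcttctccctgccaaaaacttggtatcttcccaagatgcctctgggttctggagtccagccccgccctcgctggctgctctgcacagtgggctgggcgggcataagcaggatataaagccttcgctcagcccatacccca
Gstm1: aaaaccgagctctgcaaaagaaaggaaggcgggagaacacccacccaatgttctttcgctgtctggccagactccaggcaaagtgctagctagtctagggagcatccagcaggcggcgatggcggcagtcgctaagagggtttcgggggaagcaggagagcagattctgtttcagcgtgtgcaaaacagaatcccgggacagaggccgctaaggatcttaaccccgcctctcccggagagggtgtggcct

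The Srxn1 run held 3 copies of the core, and the copy nearest the start, TGAGTCAGC, lay 45 to 37 bases before it. That copy overlaps TGACTCA, the AP-1 motif, on the opposite strand. The runs of Nqo1 and Gstm1 held no copy, which says only that these letters are not in these windows. Windows of 300 bases, from 250 before to 50 after the start, were at hand for 7 of the 10 members, and 5 of the 7 held the core. Some members have several windows, and counted by window the core was in 6 of 10 for the members and in 41.3% of all 32851. The narrower core TGACNNNGC was in a window of 4 members (Nfe2l2, Srxn1, Gclm and Txnrd1) and in 12.4% of all windows. TGACTCA was found in the window of 1 member, Srxn1, and in 5.2% of all windows. Hmox1, Gclc and Gsr had no window here.

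Total counts ran from 67720628 to 98786746 per line, and each member had between 1136 and 32679 counts in every line. Levels are CPM, a gene's counts scaled to a common library total with TMM normalization factors. Hat1 itself was at 17.4, 23.0 and 20.1 CPM in WT lines 36, 47 and 78 and at 10.2, 10.0 and 10.3 CPM in KO lines 33, 41 and 72, with no overlap. The counts are per gene and do not show which exons the remaining reads cover. The log2 fold change of Hat1, KO over WT, was -0.99 with a standard error (SE) of 0.12 and an adjusted p of 0.0376 (edgeR quasi-likelihood test, Benjamini-Hochberg over all tested genes). KO line 72 stood apart, with a mean correlation over genes of 0.958 with the other lines against 0.974 to 0.979 for the rest, and it had the highest level for 26.0% of tested genes. RNA of 4 Y-linked genes summed to 183 and 159 CPM in WT lines 36 and 47 but to 2.33 CPM or less in WT line 78 and all KO lines, so sex-linked expression was not balanced. Fibroblast markers summed to between 57730.2 CPM, in KO line 72, and 89801 CPM, most of it RNA of collagens and Fn1. In KO line 72, Col1a1, Col1a2, Col3a1, Pdgfra, Thy1 and Dcn were lower than in every other line. Pdgfrb, Lum and Fn1 lay within the range of the other lines there, and Vim was the highest, at 4494 CPM. Markers of macrophages were also present and their sum was 4802 to 5228 CPM for WT lines but 2269 to 2834 CPM for KO lines. In bulk RNA, fewer cells of a type and less RNA per cell cannot be told apart.

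Across the 10 members, 4 were lower in the KO lines at an unadjusted p under 0.05: Hmox1, Gstm1, Nfe2l2 and Srxn1. Over all tested genes, 8.77% were lower by this rule and 5.88% were higher, and no member was higher. Because the members were chosen with earlier results known, these shares are a description and not a test. The same 4 members were also those whose lines did not overlap between genotypes, all with KO below WT. Non-overlap in this direction was seen for 12.4% of tested genes, and in the other direction for 9.59%. None of the 10 passed an adjusted p under 0.05 in edgeR, a rule that 0.528% of tested genes passed, while DESeq2 and limma-voom each called 1 member, Hmox1. After adjustment DESeq2 called 6.14% and limma-voom 1.81% of the genes they tested. A change of 1.5-fold or more at an unadjusted p under 0.05 was met by 6.11% of tested genes and by none of the members. Of the 10 log2 fold changes, 7 were negative and 3 positive, with a median of -0.13 against 0.01 for all tested genes.

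**Figure D1:**
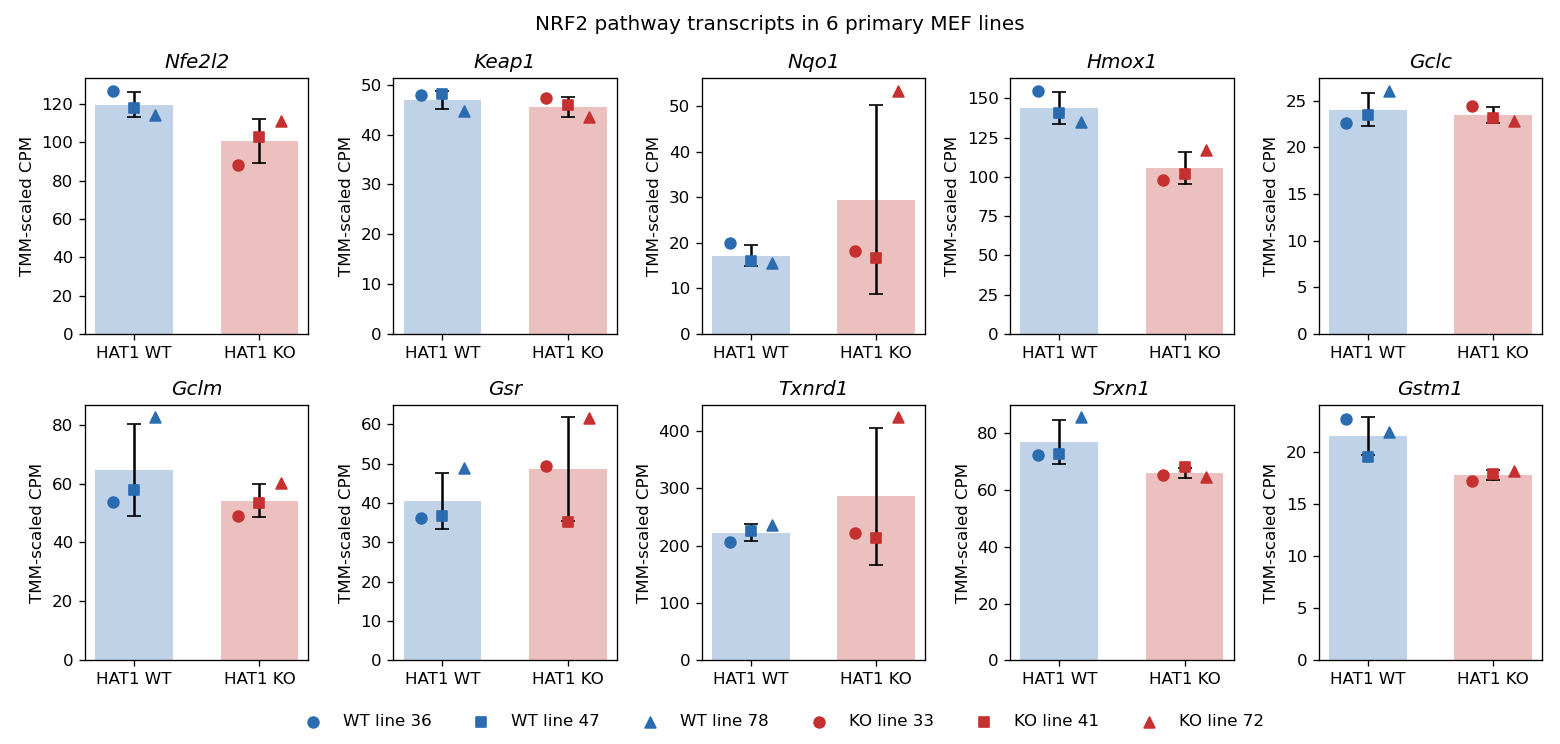
Level of each of the 10 genes in TMM-scaled CPM (vertical axes, each starting at 0) in the 3 HAT1 WT and 3 HAT1 KO lines, with 1 point per line, bars for the mean of each genotype and error bars for its SD. The KO points of Hmox1, Nfe2l2, Srxn1 and Gstm1 all lie below the WT points, while KO line 72 stands above every other line for Nqo1, Gsr and Txnrd1.

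Nfe2l2 encodes NRF2 itself and lies at chr2:75675513-75704641 on the minus strand of GRCm38, 4.23 Mb from Hat1. It was at 127, 118 and 114 CPM in WT lines 36, 47 and 78 and at 88.2, 103 and 111 CPM in KO lines 33, 41 and 72. All 3 KO lines were lower than all 3 WT lines, but the gap between KO line 72 and WT line 78 was small beside the spread within the KO lines. The means were 119.7 ± 6.89 CPM in WT and 101 ± 11.5 CPM in KO (SD, n = 3 each). On the log2 scale KO was at -0.25 relative to WT (SE 0.10), with an unadjusted p of 0.0452 and an adjusted p of 0.331 in edgeR. The exact two-sided permutation test gave p = 0.1, the smallest that 3 lines against 3 allow. When each line was left out in turn, the unadjusted p stayed under 0.05 in 1 of 6 fits, and the log2 fold change ran from -0.31 without KO line 72 to -0.16 without KO line 33. With sequencing lane in the model the unadjusted p was 0.204.

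Keap1, whose protein directs NRF2 to degradation, lies at chr9:21229730-21239361 on the minus strand. It was at 48.0, 48.1 and 44.8 CPM for WT and at 47.4, 45.9 and 43.5 CPM in the KO lines, in the same line order. The genotypes overlapped, and the log2 fold change of -0.04 (SE 0.07) had a 95% interval from -0.20 to 0.11. Keap1 was among the steadiest genes over the 6 lines, since its SD of 0.059 in log2 CPM was undercut by only 3.76% of tested genes. Part of its exon length, 10.9%, overlaps Gm16754 on the opposite strand, and whether counting used strand is not given in the sources used here. The ratio of Keap1 to Nfe2l2, both per kilobase of exon, was 0.305, 0.33 and 0.318 in WT lines 36, 47 and 78 and 0.434, 0.36 and 0.317 in KO lines 33, 41 and 72. KO lines 33 and 41 were above all WT lines, KO line 72 was within their range, and the exact permutation test gave p = 0.3.

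Hmox1, heme oxygenase 1, opens the heme ring and is also strongly expressed by macrophages that take up red cells. It lies at chr8:75093621-75100589 on the plus strand. Its levels were 155, 141 and 135 CPM in WT lines 36, 47 and 78 and 97.8, 102 and 117 CPM in KO lines 33, 41 and 72. Every KO line was below every WT line, and the KO mean of 106 ± 10.1 CPM was 73.5% of the WT mean of 144 ± 10.2 CPM (SD, n = 3 each). This log2 fold change, -0.45 (SE 0.09, 95% interval -0.67 to -0.22), had an unadjusted p of 0.00282 and an adjusted p of 0.124 in edgeR. DESeq2 gave an adjusted p of 0.00311 and limma-voom one of 0.0392. Hmox1 was the only member with an unadjusted p under 0.05 in every alternative fit. With the sequencing lane in the model the adjusted p was 0.719 and the log2 fold change -0.40, and over all alternatives the adjusted p ran from 0.00311 to 0.719.

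Macrophage markers were also lower in the KO lines. Of 12 listed markers 11 were tested, and all 11 were lower at an unadjusted p under 0.05, against 8.77% of all tested genes. Their median log2 fold change was -0.85. Lyz2, the lysozyme of myeloid cells, fell from a mean of 2937 CPM to 1462 CPM. Both Hmox1 and the macrophage sum separated the genotypes, so a difference in Hmox1 per cell and a difference in macrophage RNA cannot be told apart here. The same separation was seen for Nfe2l2, Srxn1 and Gstm1, and the part of macrophage RNA in these was not tested. Within each genotype the order differed in part. Among the KO lines, line 72 had the lowest macrophage sum and the highest Hmox1, but line 33 was below line 41 in both. Among the WT lines, line 47 had the highest macrophage sum and line 36 the highest Hmox1, but line 78 was the lowest in both. WT line 78, like the KO lines, had little Y-linked RNA. Its place above all KO lines for Hmox1, Nfe2l2, Srxn1 and Gstm1 follows from the non-overlap of these genes. The part of sex-linked expression in them was not tested.

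**Figure D2:**
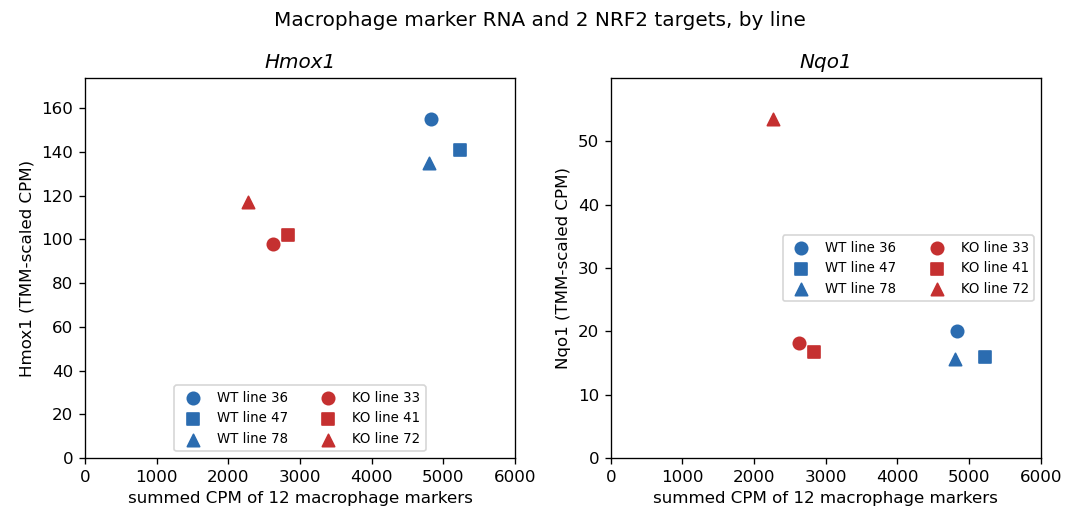
Hmox1 (left) and Nqo1 (right) in TMM-scaled CPM against the summed CPM of 12 macrophage markers, with 1 point per line and both axes starting at 0. The WT lines lie at 4802 to 5228 CPM of marker RNA with Hmox1 at 135 to 155 CPM, and KO line 72, with the least marker RNA, has Nqo1 at 53.5 CPM.

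Nqo1, a quinone reductase and a widely used readout of NRF2 activity, lies at chr8:107388225-107403206 on the minus strand. It was at 20.0, 16.0 and 15.7 CPM in WT lines 36, 47 and 78 and at 18.2, 16.8 and 53.5 CPM in KO lines 33, 41 and 72. KO line 72 was 3.05 times the mean of the other KO lines, which themselves lay within the WT range. The line-72 level rested on 4126 counts, and its distance above the other 5 lines ranked 319 of 14773 genes in that line. The log2 fold change of 0.77 (SE 0.46) had a 95% interval from -0.34 to 1.89 and an unadjusted p of 0.142 in edgeR. Without KO line 72 it was 0.04.

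Txnrd1, cytosolic thioredoxin reductase, returns oxidized thioredoxin to its active form and lies at chr10:82833951-82897712 on the plus strand. It was at 206, 226 and 236 CPM for WT and at 221, 213 and 424 CPM in the KO lines, in the order given above. KO line 72 was again high, at 1.95 times the mean of the other KO lines, and those were within the WT range. Its log2 fold change was 0.36 (SE 0.27, 95% interval -0.30 to 1.02), and -0.02 without KO line 72.

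Gsr, glutathione reductase, restores reduced glutathione from its disulfide and lies at chr8:33652523-33698163 on the plus strand. Its levels were 36.2, 36.7 and 48.8 CPM in WT lines 36, 47 and 78 and 49.4, 35.2 and 61.5 CPM in KO lines 33, 41 and 72. KO line 72 was the highest and KO line 41 the lowest, WT line 78 was above the other WT lines, and the genotypes overlapped. For Gsr the log2 fold change was 0.26 (SE 0.22, 95% interval -0.27 to 0.80), and it was 0.07 without KO line 72. Without KO line 41 it was 0.45, with an unadjusted p of 0.0447 in edgeR.

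KO line 72 had the highest level for 3 of the 10 members, or 30%. It was highest for 26.0% of all tested genes and for 37.1% of the 116 tested genes of the other pathway lists. By list, the share was 46.4% for other NRF2 targets, 41.2% for NRF2 partners and regulators, 37.5% for the thioredoxin system, and 55.6% for glutathione peroxidases and glutaredoxins. For superoxide dismutases and catalase it was 60%, for heme and iron handling 30%, for glutathione S-transferases 25%, for glutathione synthesis and turnover 20%, and for selenoprotein synthesis 0%. Because line 72 is 1 culture, this describes that line and not the genotype. Its lower fibroblast marker sum, with Vim going the other way, and its lower macrophage marker sum stand beside these shares. Their part in the line-72 levels was not tested.

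**Figure D3:**
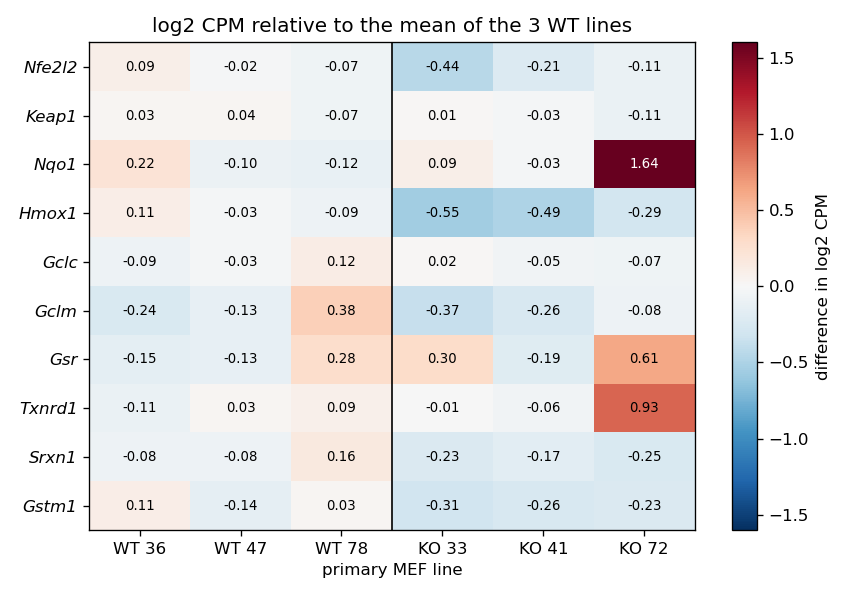
Level of each of the 10 genes in each line as the log2 CPM minus the gene's mean over the 3 WT lines, with lines in columns, genes in rows, and the difference printed and coloured. KO line 72 is the most raised column for Nqo1, Txnrd1 and Gsr, and Keap1 and Gclc stay near 0 in all lines.

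Gclc and Gclm encode the catalytic and the modifier subunit of glutamate-cysteine ligase, the rate-limiting enzyme of glutathione synthesis. Gclc, at chr9:77754535-77794485 on the plus strand, was at 22.6, 23.5 and 26.1 CPM for WT and at 24.4, 23.2 and 22.8 CPM in the KO lines. The genotypes overlapped almost completely, with a log2 fold change of -0.04 (SE 0.08, 95% interval -0.24 to 0.17). Only 8.81% of tested genes had a smaller SD over the 6 lines.

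Gclm, at chr3:122245557-122270732 on the plus strand, varied more. It was at 53.7, 57.9 and 82.6 CPM in WT lines 36, 47 and 78 and at 49.1, 53.3 and 60.2 CPM in KO lines 33, 41 and 72. WT line 78 was 1.48 times the mean of the other WT lines, and the remaining lines of both genotypes overlapped. For Gclm the log2 fold change was -0.26 (SE 0.18, 95% interval -0.69 to 0.17), and without WT line 78 it was -0.04. The ratio of Gclm to Gclc per kilobase was 1.42, 1.47 and 1.90 for WT and 1.20, 1.38 and 1.58 for KO. These ratios overlapped as well (exact permutation p = 0.4).

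Srxn1, sulfiredoxin, repairs overoxidized peroxiredoxins and lies at chr2:152105516-152111376 on the plus strand. It was at 72.5, 72.7 and 85.8 CPM in WT lines 36, 47 and 78 and at 65.3, 68.2 and 64.6 CPM in KO lines 33, 41 and 72. The KO lines were tightly grouped and all below the WT lines. Srxn1 had a log2 fold change of -0.22 (SE 0.08), an unadjusted p of 0.0369 and an adjusted p of 0.309 in edgeR. With each line left out in turn, the unadjusted p was between 0.0372 and 0.0923 and was under 0.05 in 1 of 6 fits, and without WT line 78 the log2 fold change was -0.13. With sequencing lane in the model the unadjusted p was 0.0522.

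Gstm1, a mu-class glutathione S-transferase that joins glutathione to electrophiles, lies at chr3:108012255-108017973 on the minus strand. Its levels were 23.1, 19.5 and 21.9 CPM in WT lines 36, 47 and 78 and 17.2, 17.9 and 18.2 CPM in KO lines 33, 41 and 72. All KO lines were below all WT lines, and KO line 72 was close to the other KO lines. Gstm1 had a log2 fold change of -0.27 (SE 0.09), an unadjusted p of 0.0223 and an adjusted p of 0.261 in edgeR. Leaving out each line gave an unadjusted p of 0.013 to 0.0812, under 0.05 in 2 of 6 fits, and with sequencing lane in the model it was 0.147. The KO spread of Gstm1, a coefficient of variation of 2.75%, was about what its counts alone give, 2.7%. Gstm1 belongs to a cluster of closely similar genes, so reads may be shared among them.

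**Figure D4:**
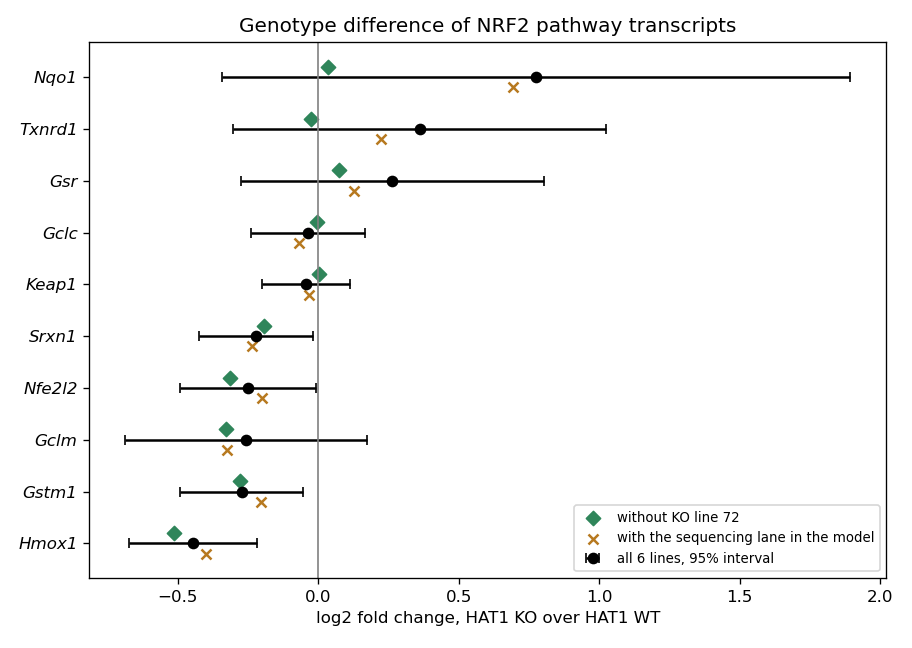
Log2 fold change of each of the 10 genes, KO over WT (horizontal axis), with its 95% interval from edgeR over all 6 lines (black), without KO line 72 (diamonds) and with sequencing lane in the model (crosses). The intervals of Hmox1, Gstm1, Nfe2l2 and Srxn1 lie below 0, and that of Nqo1 is the widest, from -0.34 to 1.89.

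Compared per kilobase of exon, Hmox1 had the highest mean level over the 6 lines, at 71.2 CPM per kilobase. Txnrd1 followed at 35.9, Nfe2l2 at 29.0 and Srxn1 at 25.4 CPM per kilobase. Gsr, Nqo1 and Gstm1 were at 16.2, 15.1 and 13.3 CPM per kilobase. Keap1, Gclm and Gclc were the lowest, at 9.86, 9.45 and 6.32 CPM per kilobase. Between neighbours in this order, ranges over the lines did not overlap for Srxn1 and Gsr, for Gstm1 and Keap1, and for Gclm and Gclc, and the other neighbours overlapped. The place of Nqo1 above Gstm1 came from KO line 72, since Nqo1 was the higher of the pair in that line only.

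The other genes of the pathway were taken from 9 lists: 116 of 124 listed genes, the members left out, were tested. Of these, 13 were lower (11.2%) and 7 higher (6.03%) in the KO lines at an unadjusted p under 0.05. These shares were near those of all tested genes, 8.77% lower and 5.88% higher. Among the 116 list genes, signs were split 58 to 58. Their median log2 fold change was 0.005. Of these 20 genes, 9 kept an unadjusted p under 0.05 in edgeR whichever line was left out: Hpgds, Blvrb, Cat, Sesn1, Hmox2, Gsta3, Gstm4, Gsto1 and Gstp1, the last 4 named after their values were seen. The other 11 lost it without at least 1 line, WT or KO, and 7 of the 20 kept it with sequencing lane in the model.

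Genes of heme and iron handling had 5 of 10 tested genes lower (50%, against 8.77% of all tested genes) and none higher. Their median log2 fold change was -0.30. Blvrb, a biliverdin reductase, was at 23.4, 22.8 and 26.2 CPM for WT and at 17.5, 15.3 and 14.6 CPM in the KO lines. The KO lines lay below the WT lines, with a log2 fold change of -0.61 and an adjusted p of 0.0788 in edgeR. Hmox2, the constitutive heme oxygenase, was at 28.0, 27.0 and 25.5 CPM in WT and 21.6, 22.0 and 22.5 CPM in KO, also without overlap. The other 3 that passed, named after their values were seen, were Blvra (-0.33), the ferritin heavy chain gene Fth1 (-0.41) and the transferrin receptor gene Tfrc (-0.32) on the log2 scale. Macrophages, which handle heme iron, had a marker sum that also separated the genotypes, and both differences cannot be told apart.

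Of the other NRF2 targets, 5 of 28 were lower (17.9%, against 8.77% of all tested genes) and none higher. Their median log2 fold change was -0.04. Blvrb, Blvra and Fth1 are in this list and in the heme list, so the calls of these lists are not separate. Cat, catalase, was at 117, 105 and 119 CPM for WT and at 76.2, 85.5 and 87.4 CPM in the KO lines. Its lines did not overlap, and its log2 fold change was -0.45 with an adjusted p of 0.0935 in edgeR. Besides Blvrb and Cat, the genes that passed were Fth1, Blvra and Gsta3, the last at 0.657 CPM or less in every line. Cat is counted again in the superoxide dismutase and catalase list, and Gsta3 again among the glutathione S-transferases. Me1, which makes NADPH, was at 140.4 CPM in KO line 72 against 91.4 to 108 CPM elsewhere.

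The partners and regulators of NRF2 had 3 of 17 genes higher (17.6%, against 5.88% of all tested genes) and none lower. Their median log2 fold change was 0.02. Rbx1, a subunit of the ubiquitin ligase that works with KEAP1, was higher by 0.15 on the log2 scale, and Cand1, an exchange factor of such ligases named after its values were seen, by 0.19. Brca1, a DNA repair gene, was higher by 0.46. With sequencing lane in the model the unadjusted p in edgeR was 0.115 for Rbx1, 0.113 for Cand1 and 0.11 for Brca1. Each of these genes also lost an unadjusted p under 0.05 without at least 1 line. Bach1, a repressor that competes with NRF2 at its sites and holds down Hmox1, was at 138, 148 and 150.3 CPM in WT lines 36, 47 and 78 and at 128, 135 and 85.9 CPM in KO lines 33, 41 and 72. It was lowest in KO line 72, and its log2 fold change of -0.32 had an unadjusted p of 0.112. Without KO line 72 it was -0.13.

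In glutathione synthesis and turnover, 1 of 15 tested genes was lower (6.67%, against 8.77% of all tested genes) and none was higher. The lower gene was the aminopeptidase gene Anpep (-0.59 on the log2 scale, unadjusted p = 0.0439 in edgeR). Slc7a11, the cystine importer that feeds glutathione synthesis, had a log2 fold change of -0.02, and Gss, which completes the tripeptide, one of 0.18. Both are named after their values were seen, and both overlapped between the genotypes.

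Among glutathione S-transferases, 4 of 20 tested genes were lower (20%) and 2 higher (10%), with a median log2 fold change of -0.21. Over all tested genes these shares were 8.77% and 5.88%. Hpgds, a prostaglandin D synthase of this fold, was at 39.6, 40.5 and 38.6 CPM for WT and at 19.2, 22.3 and 18.3 CPM in the KO lines. This was the only gene of the 9 lists to pass in edgeR after adjustment, with a log2 fold change of -0.99 and an adjusted p of 0.032. With each line left out the adjusted p ran from 0.047 to 0.23, and over all alternatives from 4.8e-15 in DESeq2 to 0.529 in edgeR with sequencing lane in the model. Named after their values were seen, Gstm4 (-0.39) and Gsto1 (-0.29) were also lower, and Gstp1 (0.31) and Gstt1 (0.57) were higher on the log2 scale. Of the 20 log2 fold changes, 12 were negative and 8 positive. Mean CPM fell most for Gsto1 (165 to 135) and Hpgds (39.6 to 19.9) and rose most for Gstp1 (57.9 to 71.7). Summed over the list, the WT lines lay at 399 to 409 CPM and the KO lines at 354 to 360 CPM. The macrophage marker sum separated the genotypes in the same direction, and the median log2 fold change of the tested macrophage markers was -0.85. The part of macrophage RNA in the list sum and in Hpgds was not tested.

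The thioredoxin and peroxiredoxin list had 2 of 16 genes lower and 2 higher, 12.5% each, against 8.77% and 5.88% of all tested genes. Sesn1 (-0.74) and Sesn3 (-0.41), which encode sestrins, were the lower ones, and the peroxiredoxin genes Prdx6 (0.29) and Prdx3 (0.17) were the higher ones on the log2 scale. Sod3, extracellular superoxide dismutase, was at 68.7, 53.0 and 79.6 CPM for WT and at 21.4, 18.0 and 114 CPM in the KO lines. KO lines 33 and 41 were below all WT lines and KO line 72 above them, so Sod3 joined Nqo1, Txnrd1 and Gsr in being highest in line 72. Its log2 fold change was -0.39 over all lines and -1.75 without KO line 72. Of the 5 superoxide dismutase and catalase genes tested, 1 was lower (20%), Cat, and none was higher. Glutathione peroxidases and glutaredoxins (9 tested) and genes of selenoprotein synthesis (7 tested) had none lower and none higher at an unadjusted p under 0.05.

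**Figure D5:**
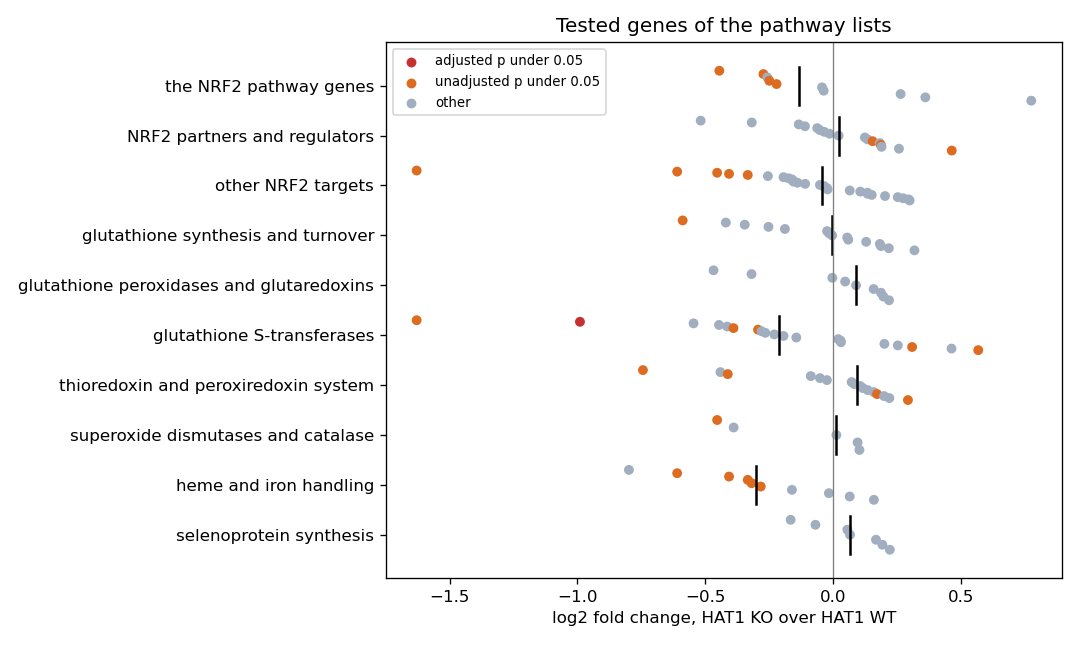
Log2 fold change, KO over WT, of each tested gene (points) in the 10 NRF2 pathway genes and the 9 other lists (rows), coloured by whether the adjusted or the unadjusted p was under 0.05, with a black bar at each list's median and a grey line at 0. The medians of heme and iron handling (-0.30) and of glutathione S-transferases (-0.21) are the lowest of the 9 lists.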

How the data were processed

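RNA-seq libraries of total RNA (TruSeq v2) from 6 pMEF lines were analysed. The authors deposited raw counts per gene. The submitters' processing notes name mm10 and edgeR, and the aligner, the counter and strand use are not given in the sources used here. The authors' own comparison was deposited beside the counts as a log2 fold change, a log2 mean CPM, an F score, a p-value and a q-value, and none of these was used. Genes were filtered with filterByExpr, scaled by TMM and tested for genotype alone by the edgeR 4.0.16 quasi-likelihood test in R 4.3.3, two-sided, with Benjamini-Hochberg adjustment over all 14773 tested genes and a threshold of 0.05. DESeq2 1.42.0 and limma 3.58.1 (voom with sample quality weights) were alternatives, as were other scalings, other filters, sequencing lane as a term and leaving out each line. The script for these fits was checked on simulated counts. Exon lengths and positions came from GENCODE on GRCm38, and promoter windows from RefSeq on GRCm38.p6. The members and lists were chosen with earlier results of these data known. The genes set to be named were the 10 members, Hat1, and the 3 tested genes most alike each member over the lines. From each list they were those with an adjusted p under 0.05, or otherwise the 2 lower and 2 higher genes of smallest p. Not all of these named list genes are described above, and some other list genes were named after their values were seen. The labels do not say whether a line is 1 embryo, so p-values measure the spread between these lines.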

Additional observations from a re-analysis of the deposited data

How the results depend on the processing

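Of 130 values of the members under alternatives, 106 kept their direction and their side of an unadjusted p of 0.05, 19 lost it, 1 gained it and 4 changed sign; for the named list genes these were 351, 31, 14 and 7 of 403. With sequencing lane in the model, 1 member was lower instead of 4, and list genes lower, higher and passing after adjustment went from 13, 7 and 1 to 6, 1 and 0. Lane 8 held WT line 36 alone, lane 7 WT line 78 and KO line 41, and lane 6 WT line 47 and KO lines 33 and 72. WT line 36 therefore adds nothing to the genotype difference in that fit. Hat1 itself had an adjusted p of 0.529 there in edgeR, at a log2 fold change of -1.10, so lost calls can reflect lost power. DESeq2 called 1 member and 7 list genes after adjustment (6.14% of its tested genes), and voom 1 and 3 (1.81%). Leaving out each line in turn gave 1 to 3 members lower, 0 to 1 higher (Gsr without KO line 41, 0.45), 10 to 19 list genes lower, 2 to 11 higher and 0 to 2 after adjustment. The log2 fold changes then ranged from -0.0711 to 0.0013 for Keap1, -0.0245 to 0.53 for Txnrd1, -0.37 to -0.0368 for Gclm, -0.075 to 0.0315 for Gclc, -0.072 to 0.24 for Ccs, -0.0122 to 0.36 for Chac1, -0.86 to 0.0224 for Gpx3, -0.22 to 0.21 for Slc48a1 and -1.75 to 0.011 for Sod3. Voom turned Gclc to 0.0057, Ccs to -0.0353 and Slc48a1 to -0.13. For each of these the cause was not tested. No paired analysis was possible because the genotypes share no replicate numbers. For Gstm1 counting error was as large as the spread of the KO lines, and 3 lines against 3 cannot give an exact p below 0.1.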

Other observations

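The genes whose pattern over the 6 lines was most like that of a member, by the root-mean-square difference of log2 CPM centred on each gene's mean, were found over all tested genes and are given as a description. For Hmox1 these were Pla2g15 (0.0454), Manba (0.0496) and Ikbke (0.0503). For Nqo1 they were Tmem151a (0.0974), Foxo1 (0.105) and Colec10 (0.106), and for Txnrd1 they were Cgref1 (0.0369), Clcf1 (0.0569) and Nav2 (0.0607). Nfe2l2 was nearest to Fndc3a (0.0323), Lrrc61 and Snx16, and Keap1 to Map2k5 (0.0132), Vps8 and Prr12. Gclc was nearest to Papolg (0.0209), Lcat and Fbxo42, and Gclm to 1500004A13Rik (0.0604), Atxn7l1 and Maml2. Gsr was nearest to Bcl3 (0.054), Fam160a1 and Ifi30, Srxn1 to Zfc3h1 (0.0209), Ap5m1 and Bptf, and Gstm1 to Yipf6 (0.0325), Phf1 and Pcmtd2.

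Proliferation markers were higher in the KO lines for 8 of 12 genes at an unadjusted p under 0.05 in edgeR, against 5.88% of all tested genes. All 12 log2 fold changes were positive, with a median of 0.73. None passed after adjustment. Lines did not overlap between genotypes for 3 of the 12, all with KO above WT, against 9.59% of all tested genes in that direction. Their sum overlapped, at 493 to 741 CPM in the WT lines and 695 to 1029.9 CPM in the KO lines.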
